A study of Homo sapiens with 4 samples.

Results

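The data cover 10 genes that supply or buffer energy in striated muscle: the creatine kinases CKM, CKB and CKMT2, the adenylate kinase AK1, myoglobin (MB), the cytochrome c oxidase subunits COX6A1, COX6A2 and COX7A1, and the lactate dehydrogenase subunits LDHA and LDHB. They were chosen by name, as 10 of the 23615 gene symbols measured, and each had a row of its own and a mean of at least 1 FPKM (fragments scaled by transcript length and by the mapped fragments of the library, so levels can be compared between genes). RNA-seq was available for day 14 cardiomyocytes made from the human embryonic stem cell line RUES2 by 2 routes with 2 biological replicates each. One route went through cardiac progenitor cells (CPC). The other went through anterior hemogenic endothelial cells (ECs), treated with XAV-939, a tankyrase inhibitor that blocks Wnt/β-catenin signaling, and is called ECsXAV here.

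Both groups were induced with 100 ng/ml activin A, then with 5 ng/ml BMP4 and 1 µM CHIR-99021 from day 1, and received insulin with B27 from day 7. ECsXAV cultures had 200 ng/ml VEGF, 5 ng/ml bFGF and 10 ng/ml BMP4 from day 2 and 2 µM XAV-939 from day 5. CPC cultures were given 1 µM XAV-939 on day 3 in some of the study's experiments, and whether these 2 cultures were among them is not given in the sources used here. The poly-A RNA came from unsorted cultures of the same line, so other cell types contributed to each value, and fewer cells of a type cannot be told apart from less RNA per cell. The sample names of the 2 groups start with different codes, so the groups may come from separate experiments, and an effect of the experiment cannot be told apart from that of the route.

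Creatine kinases move a phosphate group between ATP and creatine, which lets mitochondria and myofibrils exchange energy quickly. Several enzymes of this supply exist as a form used in striated muscle and a form used more widely, and the heart exchanges the latter for the former as it matures: CKB gives way to CKM, and COX6A1 to COX6A2. Lactate dehydrogenase is a tetramer of LDHA (M) and LDHB (H) subunits, of which LDHB prevails in the adult heart and LDHA in glycolytic tissue. Myoglobin stores oxygen in cardiac and oxidative skeletal muscle, and AK1 regenerates ATP from ADP in the cytosol. The ratios CKM/CKB, LDHB/LDHA and COX6A2/COX6A1 within each library are therefore used as maturation measures. They cover only part of maturation. From other cardiac genes, MYH7 among them, the study proposes a more mature ventricular phenotype in ECsXAV than in CPC.

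The promoters of the isoform pairs that separated the groups, COX6A2 with COX6A1 and CKM with CKB, are printed below as the 250 bases before the transcription start, 5′ to 3′ (RefSeq, GRCh38.p14). Capitals mark matches on either strand to the E-box CANNTG, the letters bound by MyoD-type and other helix-loop-helix factors, and to the MEF2 motif, an AT-rich site of the myocyte enhancer factors.
COX6A2, chr16:31428361-31428610, minus strand: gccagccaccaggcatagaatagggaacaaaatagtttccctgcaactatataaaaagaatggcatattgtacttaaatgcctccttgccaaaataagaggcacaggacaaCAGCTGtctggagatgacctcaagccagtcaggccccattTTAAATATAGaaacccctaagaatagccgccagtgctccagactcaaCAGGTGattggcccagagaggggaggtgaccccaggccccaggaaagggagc
COX6A1, chr12:120437863-120438112, plus strand: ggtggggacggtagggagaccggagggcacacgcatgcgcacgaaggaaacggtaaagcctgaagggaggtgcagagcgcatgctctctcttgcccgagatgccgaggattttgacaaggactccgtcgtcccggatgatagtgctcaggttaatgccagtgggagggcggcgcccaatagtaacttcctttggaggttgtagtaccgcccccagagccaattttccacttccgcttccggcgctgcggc
CKM, chr19:45322876-45323125, minus strand: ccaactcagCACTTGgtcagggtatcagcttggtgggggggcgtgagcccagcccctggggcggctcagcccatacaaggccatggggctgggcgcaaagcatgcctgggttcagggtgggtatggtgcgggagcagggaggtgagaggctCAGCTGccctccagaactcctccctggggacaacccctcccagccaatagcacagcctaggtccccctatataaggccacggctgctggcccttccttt
CKB, chr14:103522831-103523080, minus strand: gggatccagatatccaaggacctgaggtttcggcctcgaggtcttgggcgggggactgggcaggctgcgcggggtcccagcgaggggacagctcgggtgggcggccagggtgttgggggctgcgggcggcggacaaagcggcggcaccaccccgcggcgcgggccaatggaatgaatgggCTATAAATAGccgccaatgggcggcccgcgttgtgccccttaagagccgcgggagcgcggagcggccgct

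The COX6A2 window held E-boxes starting 139 and 52 bases before the start and a MEF2 motif at 99 bases, and the COX6A1 window held neither motif. The CKM window held E-boxes at 241 and 99 bases and no MEF2 motif. The CKB window held no E-box, and its MEF2 match at 70 bases overlapped a TATAAA sequence at 69 bases, so its letters can be read as either. GC boxes (GGGCGG), which are frequent in widely used promoters, numbered 4 in CKB, 2 in COX6A1, 1 in CKM and 0 in COX6A2. Of 27303 RefSeq promoter windows of the same length, 62.2% held an E-box, 2.9% the MEF2 motif, 42.3% a GC box and 11.1% TATAAA. A match describes letters only. RefSeq windows matched 9 of the 10 genes, and COX7A1 had none. Among the other 5, CKMT2, LDHA and LDHB held 2 E-boxes each and MB and AK1 held 1. LDHB, at 243 bases, and AK1, at 30 bases, also matched the MEF2 motif, both overlapping TATAAA as in CKB, so 4 of the 9 windows held it. LDHA alone among the 9 held ACGTG, the core of hypoxia response elements, beside 18.7% of all windows with at least 1. The LDHA window had 5 matches counted over both strands. Both of its E-boxes read CACGTG, which holds the core on each strand, so each gave 2 overlapping matches. The 5 matches are therefore fewer separate sites.

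The level of each gene in each library came from the deposited FPKM, and the difference is given as CPC minus ECsXAV on log2(FPKM + 1), which understates the change of a gene with low FPKM. limma was fitted over 12398 genes with a mean of at least 1 FPKM, with Benjamini-Hochberg adjustment over all of them. A gene was called at the study's thresholds, an adjusted p under 0.05 and a change over 2-fold, here named the criterion. The study evaluated differences with DESeq on read counts, so a call here is not the study's own. Total depth is unknown. From the steps of weakly read genes, ECsXAV replicate 2 was read to 50.1% of the depth of ECsXAV replicate 1, and the CPC replicates to 86.9% and 79.8% of it, and 12070 to 12240 genes reached 1 FPKM in each library. The methods call the samples of a group biological replicates, and p-values measure the spread between 2 cultures a group.

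Cardiomyocyte markers were high in both groups, as labelled: all 19 listed were tested, and cardiac troponin T (TNNT2) stood at 2453 and 2309 FPKM in ECsXAV and at 2696 and 2988 FPKM in CPC. Summed over the list the level was 22622 and 21409 FPKM in ECsXAV and 18613 and 19694 FPKM in CPC. Past the criterion, 1 marker was higher (MYH6) and 2 were lower (MYH7, MYBPC3) in CPC. Fitted differences were higher in CPC for 5 and lower for 14, with a median log2 difference of -0.32. MYH7 had 1011 and 931 FPKM in ECsXAV and 147 and 194 FPKM in CPC. TNNI3 had 61.0 and 79.0 FPKM in ECsXAV and 27.6 and 38.7 FPKM in CPC (limma adjusted p = 0.0856). Without each library in turn 0 or 1 of these 19 were called. Of 24 skeletal muscle markers, 7 were tested and 3 were called, all higher in CPC (TNNC2, ACTN3 and STAC3), while 5 of the 7 were fitted higher and 2 lower. The fast troponin T gene TNNT3 was among the latter, at 3.76 and 3.89 FPKM in ECsXAV and 0.988 and 1.92 FPKM in CPC (95% interval of the log2 difference -1.57 to -0.44, limma adjusted p = 0.0989), and it was called with short RNA genes left out. The summed level of these 24 was 55.5 and 75.5 FPKM in ECsXAV and 194 and 195 FPKM in CPC. Most of it was ACTN3, at 37.2 and 55.9 FPKM in ECsXAV and 130 and 129 FPKM in CPC. MYF5, MYF6, PAX7, MYH1 and TMEM8C were at 0 in all 4 libraries. MYOD1 and MYOG did not exceed 0.0353 and 0.430 FPKM in any library. Of 12 smooth muscle and fibroblast markers, 8 were tested and 4 were called, all higher in ECsXAV (TAGLN, COL1A1, COL3A1, LUM), with summed levels of 472 and 478 FPKM against 229 and 257 FPKM in CPC. Of 12 endoderm and epithelial markers, 5 were tested and 3 were called, all higher in ECsXAV (AFP, APOA2, TTR), with summed levels of 46.9 and 39.2 FPKM against 19.4 and 21.5 FPKM. Of 9 neural markers, 2 were tested and TUBB3 was called, at 3.69 and 3.39 FPKM in ECsXAV and 0.498 and 0.65 FPKM in CPC. The other neural marker tested, DCX, was fitted higher in CPC (log2 difference 0.22). The endothelial (4 tested of 11), blood (2 of 9) and pluripotency (1 of 6) lists held 0 genes past the criterion by limma and 0 at an unadjusted p under 0.05. Whether these marker RNAs came from other cell types or from the cardiomyocytes was not tested, nor was the part of any other cell type in the results below.

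No member passed the criterion: 0 of 10 were called by limma, beside 2.15% of all tested genes (0.71% higher in CPC and 1.44% higher in ECsXAV). At an unadjusted p under 0.05 there were 4 of 10, with AK1 higher and CKB, CKMT2 and COX7A1 lower in CPC, beside 18.2% of all genes. Adjusted p-values ran from 0.101 (CKMT2) to 0.80 (LDHA). The fitted difference was higher in CPC for 3 genes (COX6A2, AK1, MB) and lower for 7, with a median log2 difference of -0.26 beside -0.0045 over all tested genes. Both libraries of a group lay on the same side of both libraries of the other for 7 genes, beside 49.8% of all genes: 3 were higher in CPC, beside 24.4%, and 4 were higher in ECsXAV, beside 25.4%. For 6 genes the 95% interval of the difference stayed within 2-fold either way, beside 87.7% of all genes, and it did not for COX6A2, COX7A1, CKB and CKMT2. Replicate 2 exceeded replicate 1 in both groups for 8 of the 10, beside 33.2% of all genes.

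**Figure D1:**
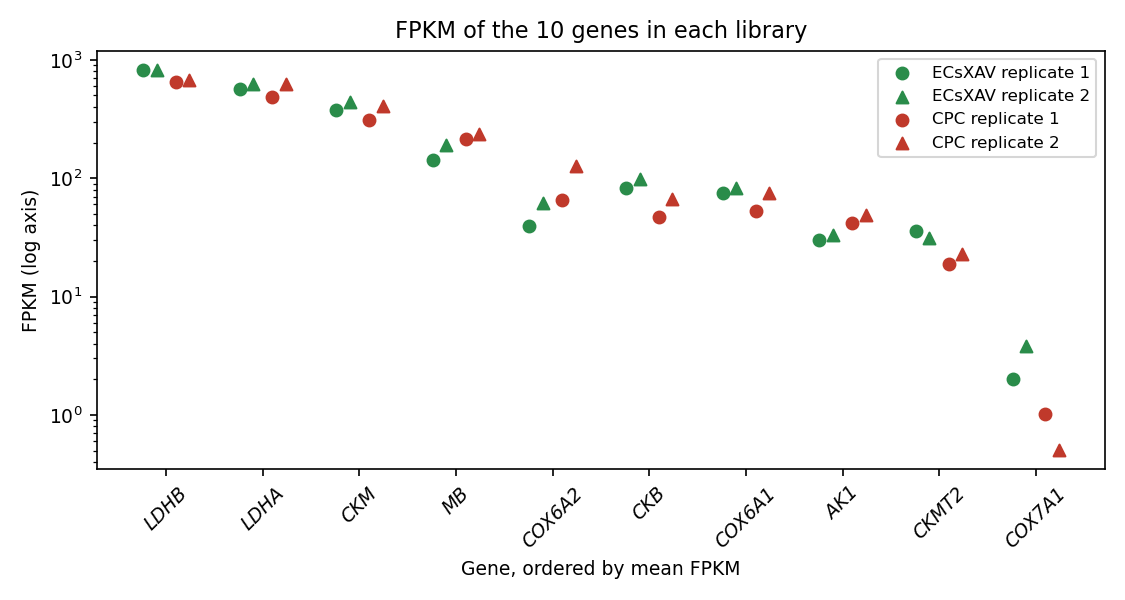
FPKM of the 10 genes on a log axis, with genes in order of their mean; green marks are the ECsXAV libraries, red marks the CPC libraries, circles replicate 1 and triangles replicate 2. LDHB, LDHA and CKM lie above 300 FPKM in every library, MB between 141 and 238 FPKM, and COX7A1 below 4 FPKM, and the groups lie close to each other relative to the range between genes.

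In level, LDHB led with a mean over the 4 libraries of 741 FPKM, followed by LDHA (574 FPKM), CKM (382 FPKM) and MB (195 FPKM). COX6A2, CKB and COX6A1 came next, at 73.5, 73.3 and 71.5 FPKM. Their libraries overlapped, so these 3 have no order among themselves. AK1 (38.6 FPKM) and CKMT2 (27.1 FPKM) followed, with libraries that overlapped, and COX7A1 was last at 1.85 FPKM.

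Among the creatine kinases, the muscle form differed little between the routes while the general form and the mitochondrial form were lower in CPC without passing the test. CKM, the cytosolic kinase of sarcomeres (chromosome 19, 45809671 to 45826133, GRCh37), had 375 and 440 FPKM in ECsXAV and 309 and 405 FPKM in CPC. The groups overlapped, with a log2 difference of -0.20 (standard error 0.19, 95% interval -0.69 to 0.29, limma adjusted p = 0.646), and without CPC replicate 1 it was -0.0035.

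CKB, the form of brain and of immature muscle (chromosome 14, 103986004 to 103989170), had 81.8 and 98.6 FPKM in ECsXAV and 46.7 and 66.3 FPKM in CPC. Every ECsXAV library lay above both CPC libraries, and the log2 difference was -0.68 (standard error 0.21, 95% interval -1.22 to -0.14, limma adjusted p = 0.182). Without CPC replicate 1 it was -0.43. CKMT2, which sits in the mitochondrial intermembrane space of striated muscle (chromosome 5, 80529139 to 80562217), had 35.5 and 31.2 FPKM in ECsXAV and 18.8 and 23.0 FPKM in CPC. Its groups were also apart, at a log2 difference of -0.65 (standard error 0.14, 95% interval -1.03 to -0.28, limma adjusted p = 0.101).

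CKM therefore outweighed CKB in every library, and by more in CPC. The CKM/CKB ratio of FPKM was 4.58 and 4.46 in ECsXAV and 6.61 and 6.11 in CPC, or 4.52 ± 0.083 and 6.36 ± 0.355 (SD, n = 2). The ratio was 1.41-fold higher in CPC, a log2 difference of 0.49, and both CPC libraries lay above both ECsXAV libraries. The exact two-sided permutation test gave p = 0.333, the smallest that 2 against 2 libraries allow, so no ratio here can reach 0.05. As a share of the summed FPKM of both genes, CKM made up 82.1% and 81.7% in ECsXAV and 86.9% and 85.9% in CPC. The sum itself was 457 and 539 FPKM in ECsXAV and 355 and 471 FPKM in CPC, which overlap. The higher ratio in CPC went with a lower CKB and not with a higher CKM, whose fitted difference was also below 0. The summed level of smooth muscle and fibroblast markers was, like CKB, higher in ECsXAV, with 6 of 8 tested fitted higher there and 4 called, while ACTA2 (log2 difference 0.16) and POSTN (0.15) were fitted higher in CPC. Their part in this ratio was not tested.

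Of the 8 genes listed for creatine phosphate, 6 were tested and 0 were called by limma. Beside 18.2% of all tested genes, 3 of the 6 had an unadjusted p under 0.05. In CPC 1 was fitted higher and 5 lower, with a median log2 difference of -0.38. GAMT, which completes creatine synthesis, had 52.4 and 58.9 FPKM in ECsXAV and 44.5 and 53.5 FPKM in CPC, and the groups overlapped. The ubiquitous mitochondrial kinase genes CKMT1A and CKMT1B were nearly unread, at no more than 0.171 FPKM for CKMT1A and 0.143 FPKM for CKMT1B in any library. Because they are near-identical copies, their reads are uncertain.

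Cytochrome c oxidase is the last complex of the respiratory chain, and its subunits COX6A and COX7A each come in a muscle and a general form. COX6A2, the COX6A form of heart and skeletal muscle (chromosome 16, 31439052 to 31439681), had 39.7 and 61.5 FPKM in ECsXAV and 65.8 and 127 FPKM in CPC. Both CPC libraries were above both ECsXAV libraries, but CPC replicate 2 held 1.93 times the level of CPC replicate 1 and ECsXAV replicate 2 held 1.55 times that of ECsXAV replicate 1. The log2 difference was 0.87 (standard error 0.37, 95% interval -0.095 to 1.84, limma adjusted p = 0.315), and without CPC replicate 2 it was 0.40.

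COX6A1, the form of most other tissues (chromosome 12, 120875893 to 120878540), had 74.3 and 83.4 FPKM in ECsXAV and 53.0 and 75.4 FPKM in CPC. The groups overlapped, at a log2 difference of -0.31 (standard error 0.20, 95% interval -0.82 to 0.20, limma adjusted p = 0.487), and without CPC replicate 1 it was -0.061.

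The COX6A2/COX6A1 ratio was the only of the 3 maturation ratios that crossed 1 between the groups. It was 0.534 and 0.738 in ECsXAV, where the general form led by FPKM, and 1.24 and 1.68 in CPC, where the muscle form led by FPKM. Which form leads depends on the scaling by transcript length. The smallest fitting fragment numbers were 302 for COX6A2 and 378 for COX6A1 in CPC replicate 1, and 536 and 494 in CPC replicate 2. The ratio means were 0.636 ± 0.144 and 1.46 ± 0.314 (SD, n = 2), 2.30-fold higher in CPC, a log2 difference of 1.20, with an exact two-sided permutation p of 0.333. COX6A2 made up 34.8% and 42.5% of the summed FPKM of the pair in ECsXAV and 55.4% and 62.7% in CPC. The summed level of the skeletal muscle markers was also higher in CPC, at 194 and 195 FPKM against 55.5 and 75.5 FPKM in ECsXAV. Most of that sum was ACTN3, at 130 and 129 FPKM in CPC and 37.2 and 55.9 FPKM in ECsXAV. Of the 7 markers tested, 5 were fitted higher in CPC, 3 of them called, and 2 lower. Their part in this ratio was not tested.

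COX7A1, the muscle form of COX7A (chromosome 19, 36641824 to 36643351), went the other way at a level close to the limit of these libraries. It had 2.01 and 3.86 FPKM in ECsXAV and 1.02 and 0.505 FPKM in CPC. Every ECsXAV library lay above both CPC libraries, at a log2 difference of -1.13 (standard error 0.29, 95% interval -1.89 to -0.38, limma adjusted p = 0.137). It was the member whose call depended on the genes in the fit: over the 12096 genes left without short RNA genes the limma adjusted p was 0.0264, which passed the criterion.

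The general form COX7A2 had 148 and 152 FPKM in ECsXAV and 95.4 and 120.3 FPKM in CPC, so the COX7A1/COX7A2 ratio was below 0.03 in every library: 0.0136 and 0.0253 in ECsXAV and 0.0107 and 0.0042 in CPC. The muscle forms of COX6A and COX7A thus lay on opposite sides between the routes, and at very different levels beside their general partners.

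The whole-read steps of the FPKM show how much counting error lies behind these values. The smallest whole numbers of fragments that fit the FPKM and the relative depths were 25 and 24 for COX7A1 in ECsXAV and 11 and 5 in CPC. Their exact 95% Poisson intervals were 1.30 to 2.97 and 2.47 to 5.74 FPKM in ECsXAV and 0.509 to 1.83 and 0.164 to 1.18 FPKM in CPC, so ECsXAV replicate 1 and CPC replicate 1 overlap within counting error. COX6A2 rested on 210 and 163 fragments in ECsXAV and 302 and 536 in CPC. Its intervals were 34.5 to 45.5 and 52.4 to 71.7 FPKM in ECsXAV and 58.5 to 73.6 and 117 to 138 FPKM in CPC, so ECsXAV replicate 2 and CPC replicate 1 were not told apart, while the replicates of each group differed by more than counting error, the intervals within CPC being far apart. COX6A1 rested on 610 and 343 fragments in ECsXAV and 378 and 494 in CPC. In CPC replicate 1 its interval, 47.8 to 58.6 FPKM, just met that of COX6A2. These intervals cover counting error only, and they would be narrower if the true numbers are multiples of the smallest ones.

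**Figure D2:**
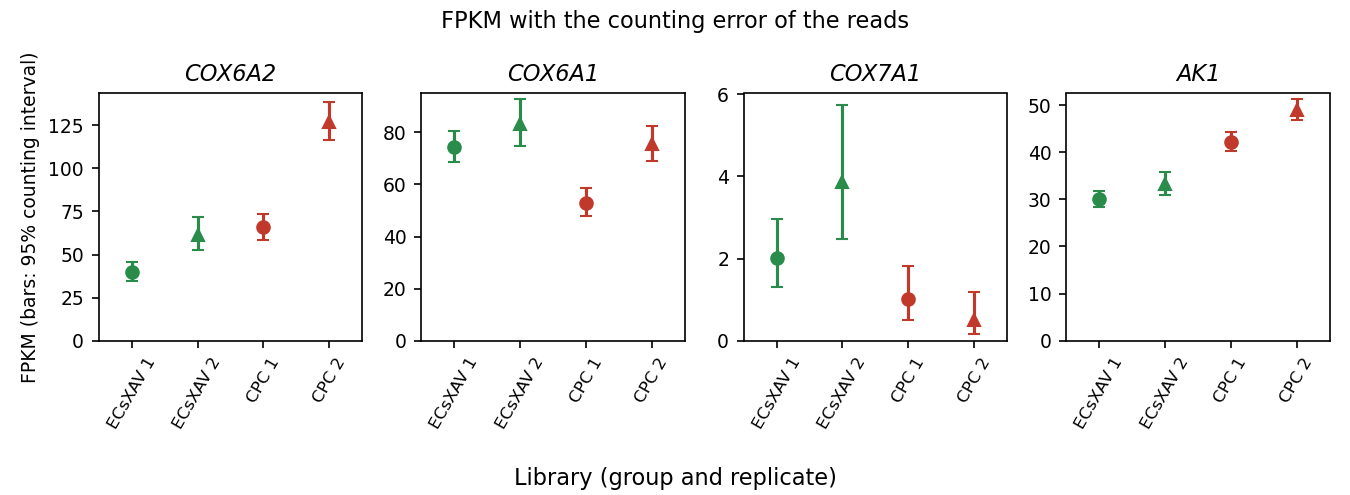
FPKM (vertical axis, from 0, a separate scale for each gene) of COX6A2, COX6A1, COX7A1 and AK1 in the 4 libraries, with bars for the 95% Poisson interval of the fragments. COX7A1 rests on 5 to 25 fragments and has wide bars, and the COX6A2 replicates within a group lie further apart than their bars.

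Of the 18 cytochrome c oxidase genes listed, 16 were tested and 0 were called by limma. Beside 18.2% of all tested genes, 7 of the 16 had an unadjusted p under 0.05. Fitted differences were lower in CPC for 14 and higher for 2, COX6A2 and the testis form COX8C, with a median log2 difference of -0.41 (-0.27 under quantile normalization, with 3 higher and 13 lower). The most abundant were COX7C, at 822 and 898 FPKM in ECsXAV and 679 and 729 FPKM in CPC, COX7B, COX5B and COX6B1. Summed over the list the level was 4109 and 4426 FPKM in ECsXAV and 3080 and 3740 FPKM in CPC. COX6A2 thus was fitted higher in CPC in a list whose other members were nearly all fitted lower, and none of these differences passed the criterion. Cardiomyocyte markers also leaned lower in CPC, with 14 of 19 fitted lower, 5 higher and a median log2 difference of -0.32.

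**Figure D3:**
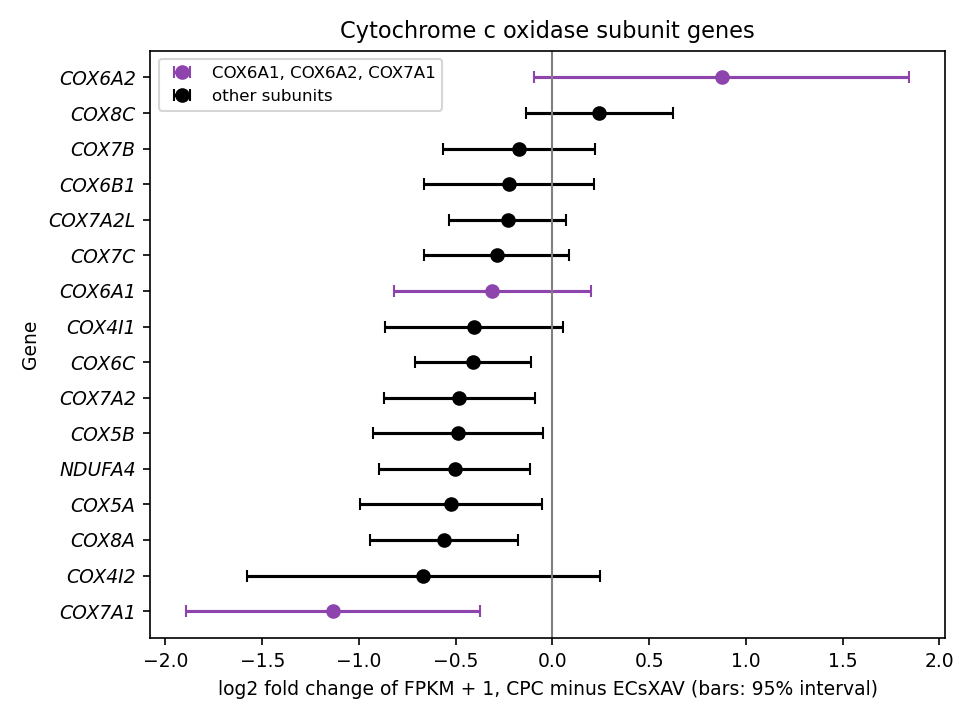
log2 difference of FPKM + 1 (CPC minus ECsXAV, horizontal axis) for the 16 tested cytochrome c oxidase subunit genes, with 95% intervals from limma; purple marks COX6A1, COX6A2 and COX7A1. COX6A2 lies at the top at 0.87 with an interval that includes 0, COX7A1 at the bottom at -1.13, and 14 of the 16 points lie below 0.

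The lactate dehydrogenase subunits were the most abundant members, and LDHB led LDHA in every library of both groups. LDHB, the H subunit (chromosome 12, 21788276 to 21910791), had 820 and 824 FPKM in ECsXAV and 648 and 671 FPKM in CPC. Its replicates were close and its groups apart, at a log2 difference of -0.32 (standard error 0.14, 95% interval -0.67 to 0.033, limma adjusted p = 0.312), and after quantile normalization it was 0.015.

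LDHA, the M subunit (chromosome 11, 18416107 to 18429972), had 569 and 620 FPKM in ECsXAV and 487 and 621 FPKM in CPC. The groups overlapped, at a log2 difference of -0.11 (standard error 0.18, 95% interval -0.57 to 0.34, limma adjusted p = 0.80), with a sign that turned to 0.073 after quantile normalization and to 0.064 without CPC replicate 1.

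The LDHB/LDHA ratio was 1.44 and 1.33 in ECsXAV and 1.33 and 1.08 in CPC, or 1.39 ± 0.0809 and 1.21 ± 0.177 (SD, n = 2). It overlapped between the groups, with a log2 difference of -0.21 and an exact two-sided permutation p of 0.667. LDHB made up 59.1% and 57.1% of the summed FPKM in ECsXAV and 57.1% and 51.9% in CPC, and the sum was 1389 and 1444 FPKM in ECsXAV and 1135 and 1291 FPKM in CPC.

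Cufflinks divided LDHA between a coding transcript, NM_005566, with 33.2% to 42.7% of the gene's FPKM, and a transcript with a non-coding identifier, NR_028500, with 56.6% to 66.1%. This division is an estimate from shared exons, and it did not separate the groups: NR_028500 held 57.3% and 66.1% in ECsXAV and 59.9% and 56.6% in CPC. The main transcript held 97.1% to 98.6% of MB, 98.0% to 99.9% of CKMT2 and 99.8% to 100% of LDHB, and the other 6 members had a single transcript in the table.

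Of 19 genes listed for lactate and pyruvate, 14 were tested and 0 were called by limma. Beside 18.2% of all tested genes, 2 of the 14 had an unadjusted p under 0.05. They were the mitochondrial pyruvate carrier genes MPC1 and MPC2. MPC1 had 64.3 and 64.9 FPKM in ECsXAV and 42.1 and 44.6 FPKM in CPC (log2 difference -0.57, limma adjusted p = 0.0708). MPC2 had 47.1 and 49.6 FPKM in ECsXAV and 31.9 and 36.1 FPKM in CPC (log2 difference -0.50, limma adjusted p = 0.113). The lactate transporter SLC16A1, at 96.4 and 88.2 FPKM against 95.4 and 81.0 FPKM, and the pyruvate dehydrogenase kinase PDK1, at 261 and 231 FPKM against 245 and 223 FPKM, overlapped between ECsXAV and CPC. The list's median log2 difference was -0.13, with 3 genes fitted higher and 11 lower in CPC, and after quantile normalization it was -0.0032, with 7 in each direction.

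Myoglobin was higher in CPC in both libraries without passing the test. MB (chromosome 22, 36002811 to 36033998) had 141 and 190 FPKM in ECsXAV and 213 and 238 FPKM in CPC. The groups did not overlap, but the spread within ECsXAV was wider than the gap between the groups, and the log2 difference was 0.46 (standard error 0.18, 95% interval -0.015 to 0.93, limma adjusted p = 0.288). The range without each library in turn was 0.25 (without ECsXAV replicate 1) to 0.67 (without ECsXAV replicate 2).

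Among the 13 oxygen-binding globins listed, 3 were tested and 0 were called by limma, with HBE1 at an unadjusted p under 0.05. CYGB, the cytoglobin of connective tissue cells, had 3.05 and 2.85 FPKM in ECsXAV and 3.01 and 4.76 FPKM in CPC. HBE1, the embryonic beta-type globin, had 2.13 and 4.55 FPKM in ECsXAV and 0.338 and 0.184 FPKM in CPC, from as few as 29, 31, 4 and 2 fragments, at a log2 difference of -1.73 (limma adjusted p = 0.0660). Of the list, 4 globin genes were at 0 in all 4 libraries. MB thus made up nearly all of the summed globin level, which was 149 and 199.8 FPKM in ECsXAV and 217 and 244 FPKM in CPC.

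AK1, the cytosolic adenylate kinase (chromosome 9, 130628765 to 130639954), had 30.1 and 33.3 FPKM in ECsXAV and 42.2 and 49.0 FPKM in CPC. Both CPC libraries lay above both ECsXAV libraries by more than the spread within either group, and by more than counting error, since the intervals ended at 35.8 FPKM in ECsXAV and began at 40.2 FPKM in CPC. The log2 difference was 0.51 (standard error 0.13, 95% interval 0.18 to 0.84, limma adjusted p = 0.132).

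Of 12 adenylate and AMP enzyme genes listed, 11 were found and 8 were tested, with 0 called by limma and AK1 alone at an unadjusted p under 0.05. Fitted differences were higher in CPC for 7 and lower for 1, at a median log2 difference of 0.19. AK3, of the mitochondrial matrix, had 33.8 and 28.2 FPKM in ECsXAV and 29.0 and 23.9 FPKM in CPC. AK4 was listed at 0 in ECsXAV replicate 1 beside 13.3 FPKM in ECsXAV replicate 2 and 15.6 and 17.4 FPKM in CPC, and an exact 0 of this kind can be a failed estimate. AMPD1, the AMP deaminase of skeletal muscle, was at 0 in all 4 libraries.

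**Figure D4:**
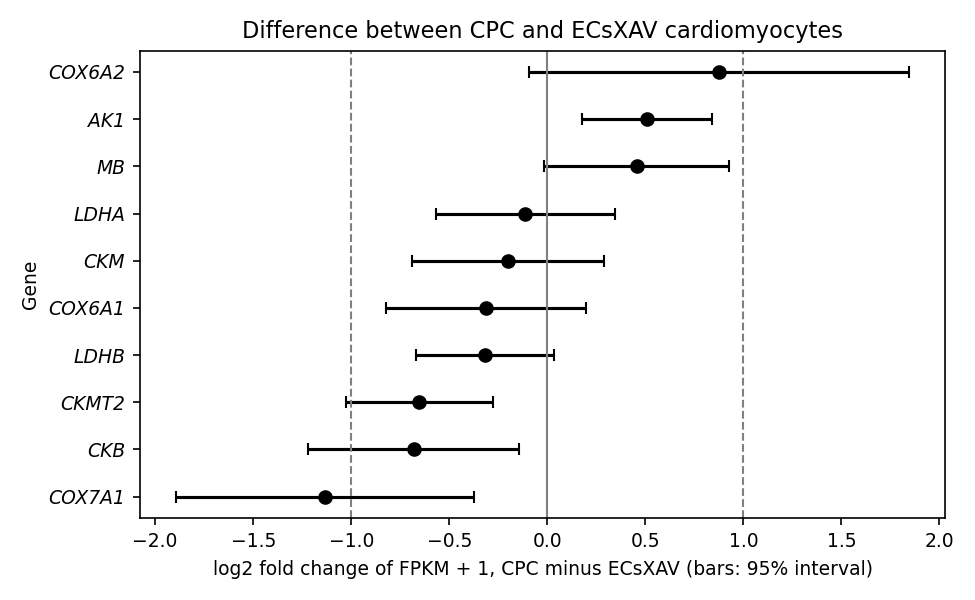
log2 difference of FPKM + 1 (CPC minus ECsXAV, horizontal axis) of the 10 genes, with 95% intervals from limma; dashed lines mark 2-fold. COX6A2, AK1 and MB lie above 0 and the other 7 below it, and COX7A1, CKB, CKMT2 and AK1 have intervals that leave out 0.

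The 3 ratios were set beside 10 further pairs of a muscle form and another form of an energy gene, 13 in all. The ratio was higher in both CPC libraries for 7 pairs, higher in both ECsXAV libraries for 2 and overlapping for 4. No background over gene pairs was computed, and of single genes 49.8% already did not overlap, so the count is a description of these pairs. For PYGM/PYGB, the muscle and brain glycogen phosphorylases, the ratio was 0.769 and 0.788 in ECsXAV and 1.36 and 1.43 in CPC, a crossing of 1 like that of COX6A2/COX6A1. For PGAM2/PGAM1, the phosphoglycerate mutases, it was 4.90 and 5.19 against 6.79 and 6.88. For HK2/HK1, the hexokinases, it was 0.202 and 0.215 against 0.294 and 0.363.

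CPT1B/CPT1A, the carnitine palmitoyltransferases of muscle and liver, stood at 2.60 and 2.55 in ECsXAV and 4.20 and 3.37 in CPC. SLC25A4/SLC25A5, the adenine nucleotide translocases that pass ATP out of mitochondria, stood at 0.408 and 0.401 against 0.50 and 0.511. Enolase (ENO3/ENO1), phosphofructokinase (PFKM/PFKP) and glucose transporter (SLC2A4/SLC2A1) ratios overlapped, with log2 differences of 0.21, -0.0048 and 0.033. The 2 ratios higher in ECsXAV were COX7A1/COX7A2 and CKMT2/CKMT1B, and both rest on a gene with few fragments. Each exact two-sided permutation p was 0.333 or more, over 13 ratios, so none passes any adjustment, and ratios cover different pathways in the same 4 libraries and are not independent.

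**Figure D5:**
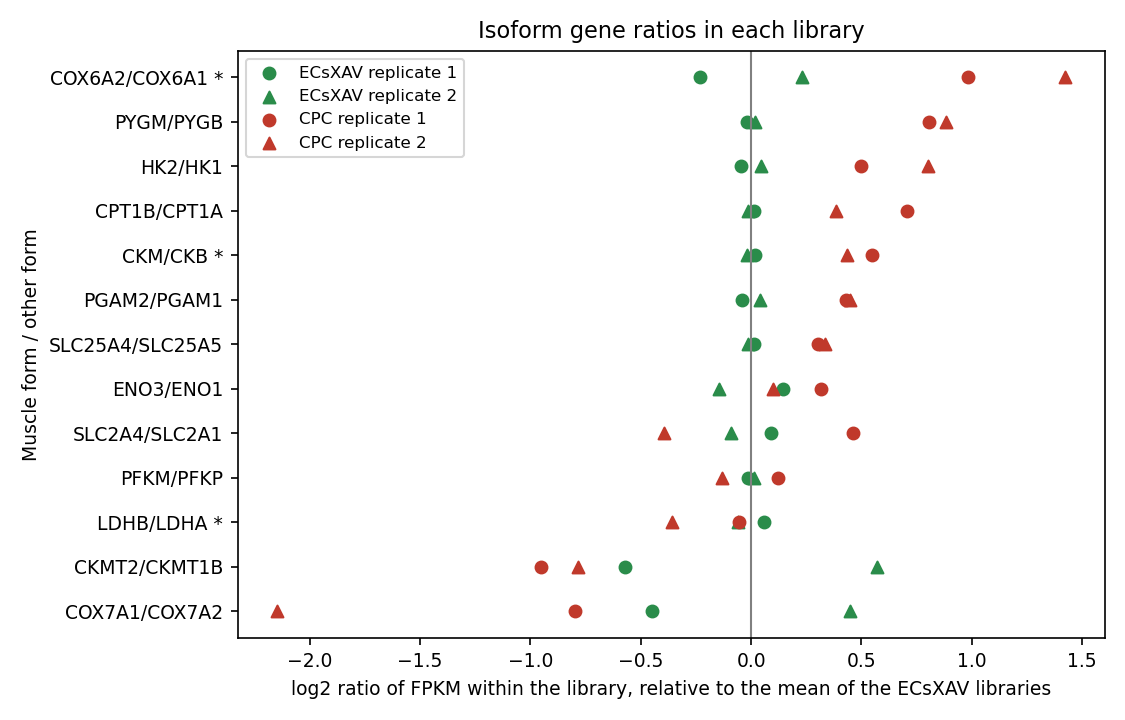
log2 ratio of FPKM of the muscle form to the other form in each library, relative to the mean of the ECsXAV libraries (horizontal axis), for 13 pairs ordered by the CPC mean; asterisks mark the 3 maturation ratios, colours the groups and shapes the replicates. COX6A2/COX6A1 and CKM/CKB lie to the right of both ECsXAV libraries in both CPC libraries, and LDHB/LDHA overlaps.

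By gene rather than by ratio the muscle forms did not move together. Of 18 muscle form genes listed, 16 were tested, with 7 fitted higher and 9 lower in CPC, a median log2 difference of -0.12 and 0 called by limma (6 at an unadjusted p under 0.05). Of 18 general form genes, 16 were tested, with 6 fitted higher and 10 lower, a median of -0.16 and 0 called by limma (6 at an unadjusted p under 0.05). Over all tested genes 18.2% had an unadjusted p under 0.05. The general forms PYGB (log2 difference -0.50, limma adjusted p = 0.0942), CPT1A (-0.53, limma adjusted p = 0.0993) and SLC25A5 (-0.45, limma adjusted p = 0.197) were fitted lower in CPC, as CKB was. FABP3, the fatty acid binding protein of heart and muscle, had 312 and 343 FPKM in ECsXAV and 173 and 276 FPKM in CPC (log2 difference -0.58, limma adjusted p = 0.315).

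Of 19 regulators known to act on such genes, 17 were tested, with 11 fitted higher and 6 lower in CPC. The median log2 difference was 0.067. By limma 0 were called, and 6 had an unadjusted p under 0.05, beside 18.2% of all tested genes. SRF, the serum response factor of muscle promoters, had 16.5 and 18.9 FPKM in ECsXAV and 26.4 and 27.5 FPKM in CPC (log2 difference 0.58, limma adjusted p = 0.0837). MEF2C, a factor that binds MEF2 motifs, had 23.4 and 19.1 FPKM in ECsXAV and 33.5 and 30.5 FPKM in CPC (log2 difference 0.57, limma adjusted p = 0.124). MEF2A had 71.1 and 63.1 FPKM against 85.3 and 84.1 FPKM (log2 difference 0.33, limma adjusted p = 0.231). HIF1A, the hypoxia-inducible factor that acts on LDHA, had 55.0 and 49.8 FPKM in ECsXAV and 51.1 and 39.1 FPKM in CPC, and the groups overlapped. EPAS1 was at 1.55 and 1.53 FPKM against 0.618 and 0.719 FPKM (log2 difference -0.60, limma adjusted p = 0.125).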

How the data were processed

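Poly-A RNA of 4 libraries, 2 in each of 2 groups, was analysed, with groups and replicate numbers from the sample labels. The authors deposited FPKM per gene and per transcript; the methods name Cufflinks 2.1.1 with UCSC annotations, and the submitters' processing notes name TopHat 1.3.3, Cufflinks and hg19. Scaling between libraries is not given in the sources used here, and read counts were not used here. log2(FPKM + 1) was fitted with limma 3.58.1 (R 4.3.3), with an intensity-dependent prior variance and no block, over the 12398 genes that averaged 1 FPKM or more, and p-values were adjusted by Benjamini-Hochberg over these. Ratios are FPKM of 2 genes within a library, so scaling between libraries cancels, and were compared with an exact two-sided permutation test.

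Relative depth came from genes at 0.005 to 0.1 FPKM. Fragment numbers are the smallest whole numbers, searched up to 2000, that fit FPKM and relative depths within 0.005, with exact 95% Poisson intervals. The fit was tested on simulated data with planted changes larger than those of any member, so this says nothing about finding changes of the members' size. Gene positions are from GENCODE release 44 on GRCh37, and promoters from RefSeq GRCh38.p14. Figures were drawn with matplotlib 3.10.9, and tables were made with pandas 2.3.3 and NumPy 2.4.6 under Python 3.11.15.

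The 10 genes and all gene lists were chosen with earlier results of these data known. Named genes are the members and, of each list, genes past the criterion, up to 4 with the highest mean FPKM and 2 with the largest change, genes of the ratios, and the 3 genes most alike to CKM, MB, COX6A2 and LDHB. CKMT1A, COX8C, AMPD1, TNNT3, TNNI3, MYOD1, MYOG, POSTN and marker genes at 0 were named after their values were seen. AK6 was not found under its symbol. Of the genes this rule selects, 1 is not reported here. Alternatives were the replicate number as a block, each library left out, short RNA genes (small nucleolar RNA and microRNA) left out, the transcript table summed per gene, quantile normalization, scaling by median of ratios, a pseudocount of 0.1, a prior without the trend, and the filter either raised to 5 FPKM or dropped.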

Additional observations from a re-analysis of the deposited data

How the results depend on the processing

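None of the members tested passed the criterion in any alternative but 1 (with the filter at a mean FPKM of 5 only 9 were tested, without COX7A1): with short RNA genes left out, 1 of them passed, COX7A1 (limma adjusted p = 0.0264), and CKMT2 had an adjusted p of 0.0280 under 2-fold. The same alternative gave 1 call in the cytochrome c oxidase list (COX7A1), 1 in the muscle form list (COX7A1) and 1 in the globin list (HBE1). The globin list also had 1 call (HBE1) with a pseudocount of 0.1. Leaving out each library gave 0 to 1 calls in the globin list, with HBE1 without ECsXAV replicate 1, and 0 to 1 in the adenylate list, with AK4 without ECsXAV replicate 2. These fits leave 1 library in a group, which is assumed to vary like the other group. Directions reversed for LDHA, to 0.073 under quantile normalization and 0.064 without CPC replicate 1 (from -0.29 without CPC replicate 2 as the lowest), and for LDHB, to 0.015 under quantile normalization. The other 8 genes kept their direction in every alternative that tested them. The cause was not tested. Without each library in turn, CKM ran from -0.40 to -0.0035, CKB from -0.93 to -0.43 and COX6A1 from -0.56 to -0.061, each lowest without CPC replicate 2 and highest without CPC replicate 1. COX6A2 ran from 0.40 without CPC replicate 2 to 1.34 without CPC replicate 1, with adjusted p-values over all alternatives from 0.0651 to 0.828, and COX7A1 from -1.81 (pseudocount of 0.1) to -0.79 (without ECsXAV replicate 2). Without each library in turn, the log2 difference of CKM/CKB ran from 0.43 to 0.55, of COX6A2/COX6A1 from 0.97 to 1.44 and of LDHB/LDHA from -0.36 (without CPC replicate 1) to -0.056 (without CPC replicate 2).

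Over all genes 266 passed the criterion, 20 with no filter, 152 at a mean FPKM of at least 5, 176 with the block and 50 to 118 without each library. Of the skeletal muscle markers 3 were called, 1 with no filter and 1 without CPC replicate 1; of the smooth muscle and fibroblast markers 4 were called, 0 with no filter, 2 with the block and 1 without each library in turn. Of the cardiomyocyte markers 3 were called, and 0 with no filter. With the block TNNI3 was called and MYH6 was not. With short RNA genes left out 4 were called, TNNI3 among them. MYBPC3 was not called under quantile normalization. Of the endoderm and epithelial markers 3 were called, 1 (AFP) with no filter, at the higher filter, under quantile normalization and with the block, and 0 without either CPC replicate. TUBB3 was not called with no filter, with the block or without either CPC replicate, and it was not tested at the higher filter. With the replicate number as a block 0 of the 10 genes passed, the lowest adjusted p being 0.0651 (COX6A2), followed by 0.0752 (CKB), and the ratios' differences were the same. The labels share only the replicate number. Differences between replicate 1 and replicate 2 in CPC and in ECsXAV had a rank correlation of 0.356 and a Pearson's r of 0.0349 across 12398 genes, and of 0.376 and 0.186 across the 12096 without short RNA genes. Genes are not independent replicates. Depth limits COX7A1, which rests on 5 to 25 fragments.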

Other observations

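For 4 of the genes, the tested genes with the most similar profile over the 4 libraries were looked up, by the root mean square difference of centred log2(FPKM + 1). With 4 libraries such a likeness is a description. COX6A2 had no near match: the closest was SLN, the sarcolipin that restrains the calcium pump of atrial and skeletal muscle, at 0.111, with 1.54 and 2.39 FPKM in ECsXAV and 3.34 and 6.10 FPKM in CPC. It was followed by NMRK2, a nicotinamide riboside kinase of muscle, at 0.131, with 14.7 and 29.5 FPKM in ECsXAV and 28.2 and 50.3 FPKM in CPC, and by EFNA3, an ephrin ligand, at 0.132, with 7.32 and 8.90 FPKM against 11.3 and 21.5 FPKM. In all 3, as in COX6A2, CPC replicate 2 was far above CPC replicate 1, which follows from choosing them by this profile.

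LDHB lay closest to CALU, a calcium-binding protein of the secretory pathway, at 0.0112, and to ATP5B, the beta subunit of the mitochondrial ATP synthase, at 0.0133. ATP5B had 872 and 888 FPKM in ECsXAV and 682 and 707 FPKM in CPC, a log2 difference of -0.34 beside -0.32 for LDHB. NACC2 followed at 0.0159. CKM lay closest to FAM53B at 0.00964, RNASET2 at 0.0106 and PPP1R35 at 0.0108, and MB to RASGRP2 at 0.0105, ARRB2 at 0.0200 and TMEM150A at 0.0247, all of which had under 17 FPKM in every library.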
